A study of Arabidopsis thaliana and Arabidopsis lyrata subsp. lyrata with 12 samples.

Results

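This account covers the response of *Arabidopsis lyrata* subsp. *lyrata* MN47 to heat stress (HS), 6 h at 37 °C, read against control plants of the same line. Its members are 4 of the 12 RNA-seq libraries of the series, 2 from control and 2 from HS plants, and all genes of the *A. lyrata* count table, 32793 loci. The study asked how transcripts of genes and of transposable elements (TEs) answer to HS in *A. lyrata* and in its relative *A. thaliana*. Plants were 3 weeks old, stood at about the 5-leaf stage and were grown on soil in a long day of 16 h light and 8 h dark at 21 °C, and RNA came from rosette leaves. HS plants differed from controls in the 6 h at 37 °C alone as far as the labels go, and controls were collected together with the stressed plants. All groups are the strain MN47. The study's methods add that nights were cooler than the labels give. The sources used here do not say whether the 2 libraries of a group came from separate plants, so p-values measure the spread between libraries, which may be technical. Genes carry the names of their *A. thaliana* orthologues, which the *A. lyrata* annotation v2 gives for 22143 loci, and the roles named below are those known from *A. thaliana*.

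Heat unfolds proteins, and plant cells answer through heat shock factors (HSFs), transcription factors that bind heat shock elements in promoters and switch on molecular chaperones. Small heat shock proteins (HSPs) hold unfolding proteins soluble, HSP70, HSP90 and HSP100 chaperones refold or disaggregate them, and the chloroplast, the mitochondrion and the endoplasmic reticulum (ER) keep sets of their own. In leaves, heat above the growth range is also known to slow photosynthesis, growth and cell division.

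The control libraries held 9263761 and 13092852 reads counted to genes and the HS libraries 8246880 and 26046839. Control replicate 2 stood apart from the rest at low counts. In it, 28395 genes had a read, against 23142 to 24809 in the other 5 *A. lyrata* libraries, and 3101 genes had reads in it alone, against 32 to 166 in each of the others. These 3101 genes had a median of 2 reads and at most 75, and none of them entered the test, since the filter asks for reads in 2 libraries. The leaf markers CA1, LHCB1.3 and LHCA1 were high in all 4 libraries, the lowest value being CA1 after HS at 1716 and 1773 CPM (read counts scaled to the TMM library size), while no seed marker and 1 each of 7 root and 12 flower and meristem markers had enough reads for a test. WOX5 (AL3G22440), known from the root tip, was at 0.103 and 0.0718 CPM in the controls and 2.1 and 2.99 CPM after HS, and SEP3 (AL1G39790), a floral regulator, was at 2.46 and 2.37 CPM in the controls and 5.64 and 5.11 CPM after HS. Without control replicate 1, HS replicate 1 or either recovery library, 1 flower marker was called lower.

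HS changed most of the genes tested. Of 20779 genes that passed the filter on low counts, 7870 were upregulated (24.0% of the table) and 8035 downregulated (24.5%) at an adjusted P below 0.05 from edgeR, and 4874 did not pass. The share called was 76.5% of the genes tested, 37.9% higher and 38.7% lower. It is the background against which each list is read. The size of the change separates genes more sharply, since 3190 of the calls were under 1.5-fold, and 4259 genes rose and 4595 fell by at least 2-fold, 20.5% and 22.1% of those tested and 42.6% together. At 16-fold or more, 417 genes rose and 285 fell, or 400 and 257 when genes without a read in a whole group are taken at the bound that 3 reads in that group give. At 64-fold or more, 145 rose and 74 fell, or 110 and 26 with such genes at their bound. The CPM of control and HS libraries did not overlap for 87.3% of the genes tested. With library totals in place of TMM, which moves the median log2 change of all tested genes from -0.01 to -0.25, 6386 genes were higher and 9617 lower. Without control replicate 2, the library that stood apart, 7233 were higher and 7253 lower, and none of the 172 genes named by the rule gained or lost its call. An exact permutation test of 2 against 2 libraries cannot give a two-sided p below 0.333, so the calls rest on the spread that edgeR pools over genes and libraries. In bulk leaf RNA, fewer cells of a type and less RNA per cell cannot be told apart.

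**Figure D1:**
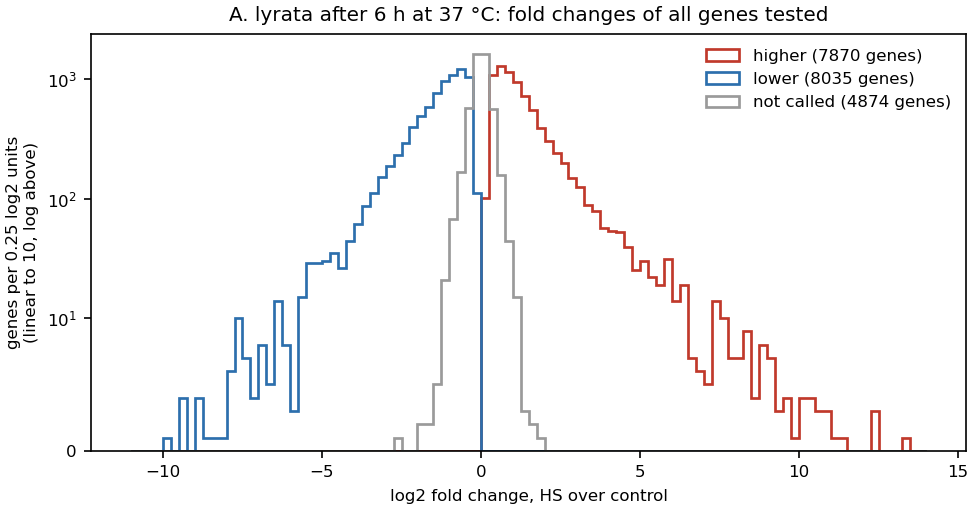
Number of genes (y axis, linear to 10 and logarithmic above) by log2 fold change of HS over control in steps of 0.25 (x axis), for the 7870 higher, 8035 lower and 4874 uncalled genes. The right tail reaches further than the left one, with 145 genes at 64-fold or more against 74, though fitted values of genes without a read in a group depend on the prior count.

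The genes were grouped in 48 lists by their role, with 866 members of which 820 had an *A. lyrata* locus. Values per library are given for replicates 1 and 2 in that order (n = 2 per group). Each ± beside a log2 fold change is its absolute value over the square root of the edgeR F statistic. It approximates a standard error only, and it can lie below the counting error of a group with few reads. Each gene below that is said to have risen or fallen had an adjusted p of 0.0074 or less from edgeR and control and HS libraries that did not overlap in CPM.

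**Figure D2:**
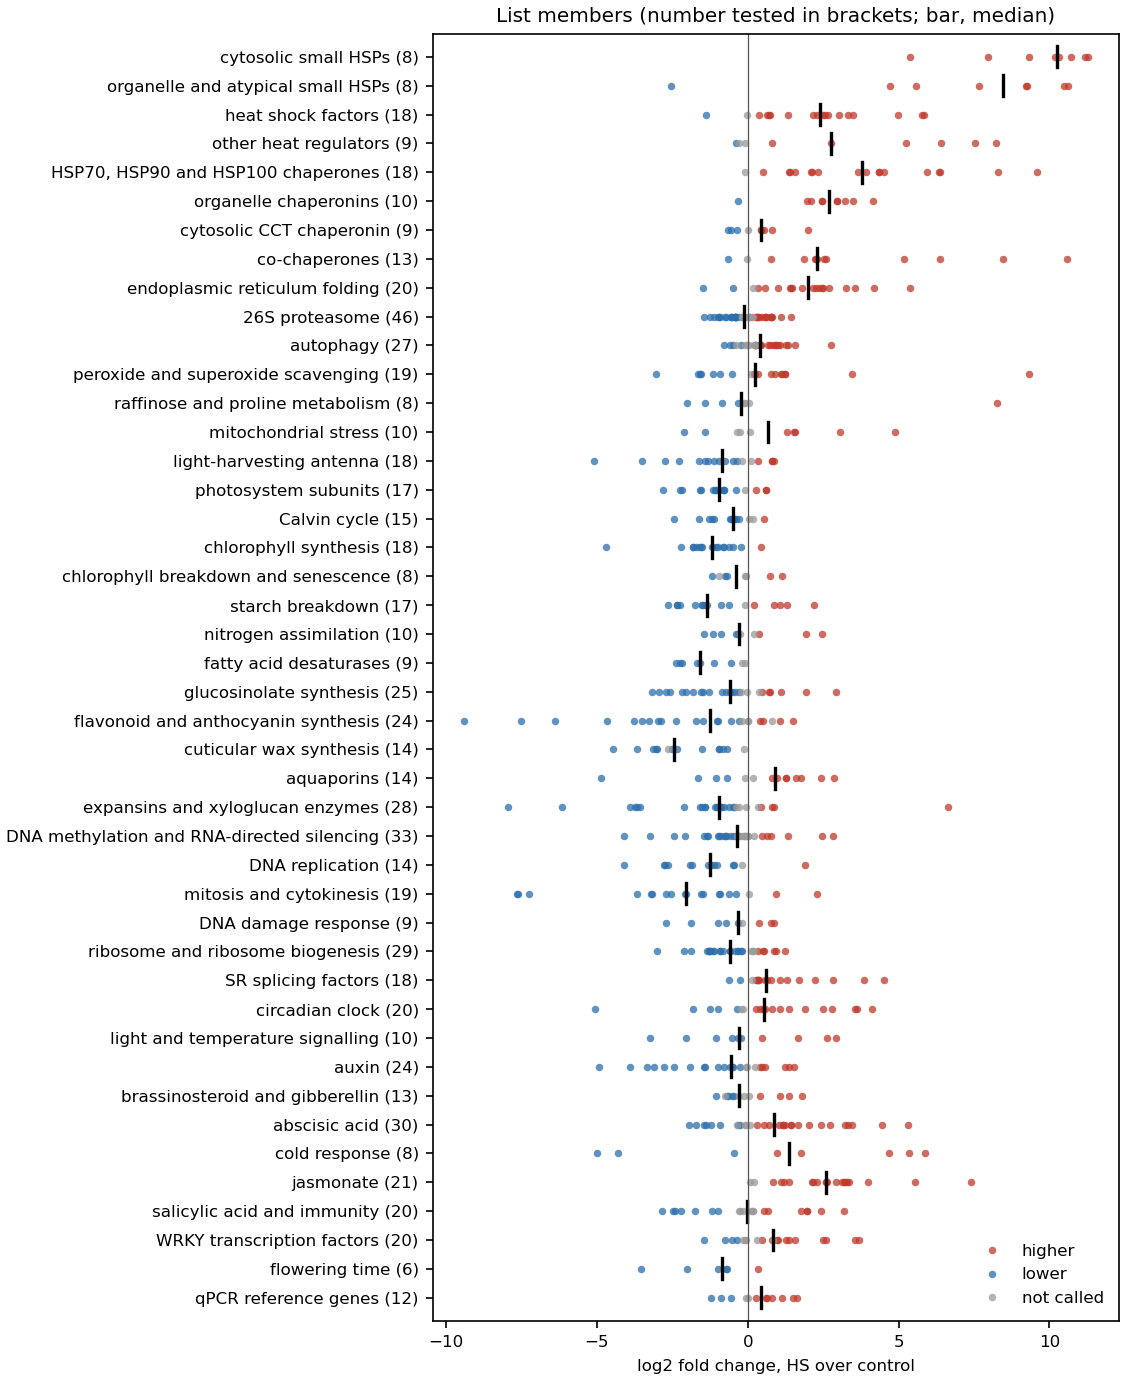
Log2 fold change of HS over control (x axis) for each tested member of the lists with at least 6 tested members (y axis, number tested in brackets), coloured by the edgeR call, with a bar at the list's median. Medians run from 10.25 for cytosolic small HSPs to -2.44 for cuticular wax synthesis, and most lists hold members on both sides of 0.

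Among the regulators of the heat response, 16 of 18 tested HSFs rose, 1 fell and 1 did not pass, and 12 rose by at least 2-fold (list median 2.38, -0.01 over all genes tested). HSFA2 (AL4G17760), the HSF that sustains the response, rose from 5.54 and 5.6 CPM in the controls to 311 and 325 CPM after HS, a log2 fold change of 5.83 ± 0.11. Its gene model (scaffold 4, 5803233 to 5805445 of assembly v1.0) overlaps a gene on the opposite strand. The libraries keep no strand, so reads of both genes cannot be told apart. The annotation marks the HSFA2 locus as containing a TE, as it does those of HSBP, P23-1, GLN1-3, PAP1, CYP71A13 and CSLD5 below. HSFA6B (AL3G36480), an HSF tied to abscisic acid signalling, rose from 0.41 and 0.574 CPM in the controls to 32.5 and 25.2 CPM after HS. In contrast, HSFA1A (AL7G35980), a constitutive factor thought to start the response, fell from 5.64 and 5.1 CPM in the controls to 2.23 and 1.95 CPM after HS (-1.39 ± 0.22). The other HSFA1 factors, named after their values were seen, were called higher, with log2 fold changes of 0.65 for HSFA1B, 0.74 for HSFA1D and 2.55 for HSFA1E. HSFA2, HSFA6B and HSFA1A were all low in the controls, at no more than 5.64 CPM. Of 9 other heat regulators, 6 rose and 1 fell (2 without control replicate 2, 3 with library totals). MBF1C (AL3G39070), a transcriptional coactivator of thermotolerance, rose from 1.64 and 1.22 CPM in the controls to 451 and 398 CPM after HS, and HSA32 (AL7G32060), which prolongs acquired thermotolerance, rose from 5.33 and 5.1 CPM in the controls to 1003 and 938 CPM after HS. The binding protein HSBP (AL7G38550), which dampens HSF activity, was the one that fell, by a small step from 41 and 37.6 CPM in the controls to 26.1 and 32.2 CPM after HS.

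The cytosolic small HSPs had the highest median of the 48 lists. All 8 tested cytosolic members rose, with a median log2 fold change of 10.25, and their reads together made up 0.0037 and 0.00357% of the control libraries but 3.44 and 2.89% of the HS libraries. HSP17.4 (AL5G24200) rose from 2.46 and 4.45 CPM in the controls to 7863 and 8649.6 CPM after HS (11.17 ± 0.31). HSP17.6A (AL6G22440) had 2 and 1 reads in the controls and 2376 and 8184 after HS, a ratio of 2716 by reads scaled to depth (exact 95% counting interval 929 to 13171, which covers counting error only). Its fitted log2 fold change of 11.27 was 12.03 when control replicate 1 was left out and 10.61 when control replicate 2 was. Its neighbour HSP17.6II (AL6G22430) (scaffold 6, 4889161 to 4889971) rose from 3.49 and 2.73 CPM in the controls to 5309.9 and 4958 CPM after HS. Both are single-exon genes of class II small HSPs and lie next to each other on scaffold 6. How reads that match several copies were assigned is not given in the sources used here, so the split between similar small HSPs is uncertain. Of 8 tested small HSPs of organelles or of atypical classes, 7 rose and 1 fell. HSP22.0 (AL6G43130), the small HSP of the ER, rose from 14.6 and 9.9 CPM in the controls to 22415 and 15443 CPM after HS, and mitochondrial HSP23.5 (AL8G24930) rose from 0.308 and 0.359 CPM in the controls to 470.3 and 514 CPM after HS. HSP15.4 (AL7G31280) ran the other way, from 83.3 and 100.05 CPM in the controls to 16.1 and 15.3 CPM after HS (-2.56 ± 0.10), and was the small HSP with the highest control level of these 3.

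Chaperones that refold proteins rose with few exceptions. Of 18 tested HSP70, HSP90 and HSP100 genes, 17 rose and 16 of them by at least 2-fold (median 3.80). None fell by edgeR, at an unadjusted p under 0.05 or by DESeq2, and 1 did with library totals. Stress-inducible HSP90.1 (AL8G26310) rose from 13.7 and 11.1 CPM in the controls to 9964 and 9058 CPM after HS (9.59 ± 0.18), and cytosolic HSP70B (AL1G27860) rose from 5.44 and 6.39 CPM in the controls to 1839 and 1950.0 CPM after HS (8.31 ± 0.16). In both genes the HS and control libraries lay far apart. Co-chaperones hand clients to HSP70 and HSP90, and 11 of 13 rose (median 2.28). ROF2 (AL8G20890), an immunophilin that binds HSP90, rose from 2.67 and 2.37 CPM in the controls to 3737 and 3941 CPM after HS (10.58 ± 0.18), and HOP3 (AL6G46130), which links HSP70 with HSP90, rose from 2.56 and 2.08 CPM in the controls to 825 and 806 CPM after HS. P23-1 (AL6G49380), an HSP90 co-chaperone, was the single member that fell, from 125 and 99.5 CPM in the controls to 68.8 and 72.4 CPM after HS (2 fell with library totals).

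**Figure D3:**
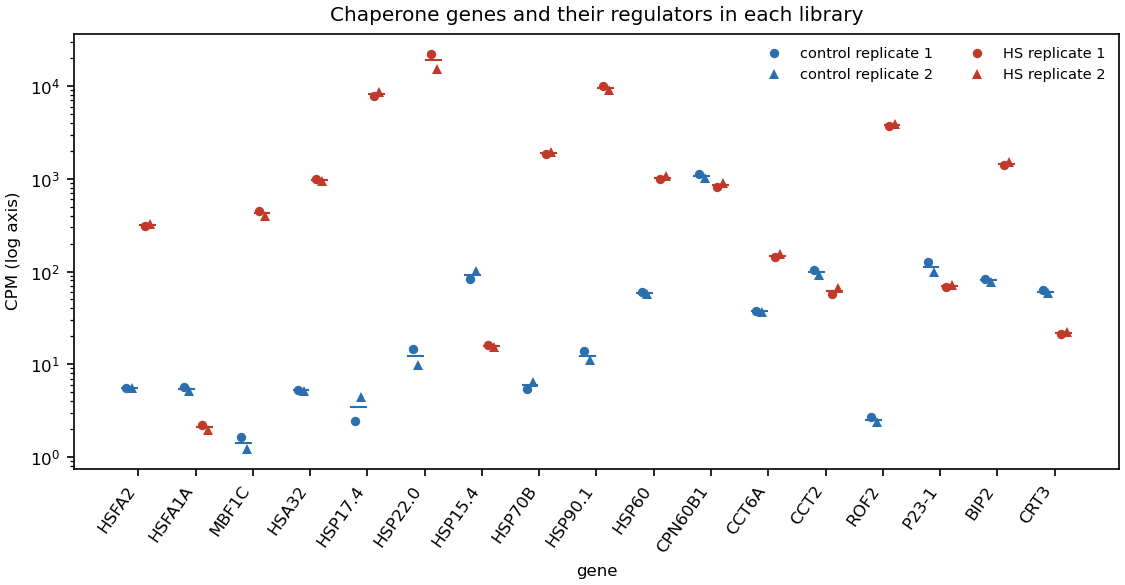
CPM (log axis) of 17 chaperone genes and their regulators (x axis) in each control library (blue) and HS library (red), with a line at the group mean. HSP22.0 was at 22415 and 15443 CPM and HSP90.1 at 9964 and 9058 CPM in the HS libraries, whereas HSFA1A, HSP15.4, CPN60B1, CCT2, P23-1 and CRT3 were lower after HS than in both controls.

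The organelle chaperonins, barrels that enclose folding proteins in mitochondria and chloroplasts, rose for 9 of 10 (median 2.70). Mitochondrial HSP60 (AL3G38510) rose from 59.5 and 57.1 CPM in the controls to 992 and 1067 CPM after HS, and the chloroplast subunit CPN60B2 (AL3G24940) rose from 251 and 242 CPM in the controls to 2602 and 2965 CPM after HS. Its paralogue CPN60B1 (AL1G61660), the subunit with the higher control level, fell from 1131 and 1027 CPM in the controls to 821 and 907 CPM after HS (-0.32 ± 0.10), a call lost without control replicate 1 (log2 fold change -0.24, edgeR adjusted p = 0.123), when no member of the list was lower. The related barrel of the cytosol, CCT, which folds actin and tubulin, moved less, with 5 of 9 subunits higher, 3 lower and a median of 0.42. CCT6A (AL3G11850) rose from 37.6 and 36.8 CPM in the controls to 142 and 156 CPM after HS and CCT5 (AL1G39550) from 148 and 137 CPM in the controls to 249 and 252 CPM after HS, while CCT2 (AL6G31900) fell from 105 and 90.58 CPM in the controls to 56.5 and 66.6 CPM after HS. Of the 9 subunits 1 rose by at least 2-fold and none fell as far. The share called was 88.9% against the background of 76.5%. The naming rule takes genes of both directions, so the difference in direction is not a result about the complex. In the ER, 17 of 20 folding genes rose and 2 fell (median 1.99). BIP2 (AL7G45880), the HSP70 of the ER lumen, rose from 83.3 and 77.2 CPM in the controls to 1402 and 1519 CPM after HS, and its J-domain partner ERDJ3A (AL3G19680) rose from 3.38 and 3.52 CPM in the controls to 147 and 141 CPM after HS. The calreticulin CRT3 (AL1G18700), which helps the surface receptor of bacterial elongation factor to fold, fell from 62.5 and 59.3 CPM in the controls to 21.1 and 22.5 CPM after HS.

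Protein breakdown did not move as one. The 26S proteasome had 15 subunits higher, 18 lower and 13 not past the test of 46 (median -0.11), a share called of 71.7% against the background of 76.5%. The core subunits PAC1 (AL7G39550) and PAE2 (AL3G26130) fell, the first from 33.6 and 28.1 CPM in the controls to 10.4 and 11.6 CPM after HS and the second from 52.9 and 49.3 CPM in the controls to 21.6 and 21.3 CPM after HS. A gene for an ATPase of the regulatory cap, RPT4A (AL8G17300), rose from 52.5 and 57.6 CPM in the controls to 142 and 153 CPM after HS, and another, RPT1A (AL1G60600), did not pass at 142 and 131 CPM in the controls and 139.7 and 142 CPM after HS, the libraries of both groups overlapping. Autophagy genes, which serve vacuolar breakdown, were higher for 16 of 27 and lower for 4 (median 0.40; 11 higher and 7 lower with library totals). ATG8C (AL2G13660) and ATG8H (AL3G17130) encode the ubiquitin-like proteins that coat autophagic membranes. The first rose from 25.8 and 26.2 CPM in the controls to 74.4 and 78.1 CPM after HS, the second from 0.615 and 0.574 CPM in the controls to 3.93 and 4.12 CPM after HS. ATG7 (AL8G12510), the enzyme that activates them, fell from 14.9 and 13.1 CPM in the controls to 8 and 8.15 CPM after HS, and ATG2 (AL3G31960), which transfers lipids to the growing membrane, did not pass at 34.6 and 37 CPM in the controls and 39.1 and 42.6 CPM after HS, though its groups did not overlap, and was called higher with RLE scaling (0.22, edgeR adjusted p = 0.0491) and without HS replicate 1 (0.26, edgeR adjusted p = 0.043).

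Scavengers of reactive oxygen changed in both directions, as did all genes tested, of which 37.9% were higher and 38.7% lower. Of 19 tested, 11 rose and 7 fell (median 0.24). APX2 (AL3G20520), a cytosolic ascorbate peroxidase known as an HSF target, rose from 2.87 and 2.3 CPM in the controls to 1487 and 1778 CPM after HS (9.32 ± 0.17), and DHAR1 (AL1G31790), which regenerates ascorbate, rose from 112 and 115 CPM in the controls to 1186 and 1295 CPM after HS. The catalase CAT3 (AL1G33020) fell from 3176 and 2875 CPM in the controls to 352 and 377 CPM after HS (-3.05 ± 0.10). Genes of compatible solutes, which protect cells under stress, moved both ways, with 62.5% called against the background of 76.5%. GOLS1 (AL4G44870), which makes galactinol for raffinose synthesis, rose from 1.33 and 2.22 CPM in the controls to 558 and 590.0 CPM after HS (8.27 ± 0.15). Both the proline-forming enzyme P5CS1 (AL4G35800) and the proline-degrading enzyme PDH1 (AL5G19900) fell, from 27.4 and 32.3 CPM in the controls to 11.7 and 11.1 CPM after HS and from 26.46 and 27 CPM in the controls to 5.38 and 7.15 CPM after HS. Of the 8 tested members 1 rose and 4 fell, and 2 rose without control replicate 1, HS replicate 1 or recovery replicate 1, while 2 fell without control replicate 1. P5CS2 (AL5G35680), the other proline-forming enzyme, did not pass at 68.2 and 71.9 CPM in the controls and 65.8 and 65.1 CPM after HS. Of 10 mitochondrial stress genes 5 rose and 2 fell (1 without control replicate 2). AOX1D (AL1G45400), an alternative oxidase that bypasses the respiratory chain, rose from 0.103 and 0.287 CPM in the controls to 7.08 and 6.24 CPM after HS, a log2 fold change of 4.90 that was 5.87 without control replicate 2. NAC013 (AL1G46010), a NAC factor of signalling from mitochondria to the nucleus, rose from 4 and 4.67 CPM in the controls to 35.8 and 36.5 CPM after HS, and NDA1 (AL1G17190), an alternative NADH dehydrogenase, fell from 49.6 and 50.5 CPM in the controls to 19.4 and 18.1 CPM after HS. NDB4 (AL3G52080), of the same enzyme family, did not pass at 20 and 21.4 CPM in the controls and 21.6 and 22.1 CPM after HS.

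Photosynthesis genes were mostly lower after HS, with single isoforms going up. Of 18 light-harvesting antenna genes 12 fell and 4 rose (median -0.86), 8 of them fell and none rose by at least 2-fold. LHCB2.3 (AL5G16790) fell from 316 and 366 CPM in the controls to 9.7 and 10.1 CPM after HS (-5.10 ± 0.12), and LHCB2.1 (AL3G41750) fell from 6206 and 5889 CPM in the controls to 497 and 574 CPM after HS. Both encode the LHCB2 protein that is phosphorylated when the antenna moves between photosystems. Within the LHCB1 group, LHCB1.3 (AL1G42730) fell from 12904 and 14483 CPM in the controls to 5594 and 6947 CPM after HS and LHCB1.1 (AL1G42720) from 11568 and 13518 CPM in the controls to 6914 and 8035 CPM after HS, but LHCB1.5 (AL4G29210) rose from 11240.5 and 13803 CPM in the controls to 21417 and 24134 CPM after HS (0.86 ± 0.10). The antenna protein of photosystem I LHCA1 (AL5G34880) also rose, from 5762 and 5193 CPM in the controls to 8630.4 and 10294 CPM after HS. Copies of LHCB1 are close in sequence, so their individual values are uncertain. The antenna reads in all made up 9.85 and 10.4% of the total reads of the control libraries and 7.36 and 8.18% of those of the HS libraries. On the TMM scale their sums lay closer together, at 93600 and 97960 CPM in the controls and 79620 and 92310 CPM after HS. Of 17 photosystem subunits 13 fell and 3 rose (median -0.94). The ferredoxin-docking subunits PSAD2 (AL1G12530) and PSAD1 (AL6G48950) of photosystem I fell, from 1339 and 1163 CPM in the controls to 179.5 and 176 CPM after HS and from 2693 and 2381 CPM in the controls to 535 and 536 CPM after HS. PSAE2 (AL3G46280), another subunit of photosystem I, rose from 290.4 and 393 CPM in the controls to 432 and 618 CPM after HS, but its model overlaps a gene on the other strand, and the call was lost without control replicate 1 (0.42, edgeR adjusted p = 0.0573) and without HS replicate 2 (0.35, edgeR adjusted p = 0.0598). In the first of these fits 1 photosystem subunit was higher, not 3.

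The Calvin cycle, which fixes carbon, had 12 of 15 genes lower and 1 higher (2 without HS replicate 1), with a median of -0.48. RPI3 (AL3G14820), a ribose 5-phosphate isomerase, fell from 297 and 285 CPM in the controls to 54.2 and 52.5 CPM after HS, and GAPA2 (AL1G24270), a subunit of chloroplast glyceraldehyde-3-phosphate dehydrogenase, fell from 2060.2 and 2054 CPM in the controls to 673 and 681 CPM after HS. The plastid triose phosphate isomerase TIM (AL4G10240) was the one that rose, from 549 and 533 CPM in the controls to 769 and 786 CPM after HS. CA1 (AL3G10680), the main carbonic anhydrase of leaves, fell from 3292 and 3485 CPM in the controls to 1716 and 1773 CPM after HS. Chlorophyll synthesis moved almost entirely one way, with 17 of 18 genes lower, 12 of them by at least 2-fold, against 22.1% of all genes, and a median of -1.18. PORB (AL7G24830), the light-dependent protochlorophyllide reductase, fell from 2163 and 2131 CPM in the controls to 83 and 81.7 CPM after HS (-4.70 ± 0.11). Magnesium chelatase inserts the central ion, and its subunit gene CHLI2 (AL8G12460) fell from 63.8 and 64.1 CPM in the controls to 14.3 and 13.5 CPM after HS. The methyltransferase CHLM (AL7G27470), the step after the chelatase, was the member that rose, from 572 and 527 CPM in the controls to 698 and 804 CPM after HS. Chlorophyll breakdown was mixed at 2 higher and 3 lower of 8 (6 lower with library totals), a share called of 62.5% against the background of 76.5%. PAO (AL5G22610), which opens the chlorophyll ring, rose from 55.4 and 62 CPM in the controls to 129.8 and 131 CPM after HS. NOL (AL6G14470), a chlorophyll b reductase subunit, fell from 32 and 35.7 CPM in the controls to 14.9 and 15.1 CPM after HS, and NYE1 (AL7G29910), the magnesium dechelatase also known as STAY-GREEN, fell from 10.4 and 11.7 CPM in the controls to 7.74 and 6.07 CPM after HS. NYC1 (AL9U10610), the other chlorophyll b reductase subunit, did not pass at 124 and 127 CPM in the controls and 117 and 119.8 CPM after HS.

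Of 17 starch breakdown genes 11 fell and 5 rose (median -1.35). The beta-amylase family genes BAM9 (AL6G29440) and BAM5 (AL7G39510) fell, from 147 and 153 CPM in the controls to 22.4 and 25.3 CPM after HS and from 365 and 383 CPM in the controls to 70.2 and 75.5 CPM after HS, and the phosphatase-like LSF1 (AL3G10670) rose from 12.7 and 13.1 CPM in the controls to 56.4 and 60.8 CPM after HS. In nitrogen assimilation 3 of 10 rose and 5 fell. The nitrate transporter and sensor NRT1.1 (AL1G23100) rose from 12.9 and 14.5 CPM in the controls to 71.5 and 79.1 CPM after HS, while the cytosolic glutamine synthetase GLN1-3 (AL3G30370) fell from 113 and 102 CPM in the controls to 44.2 and 50.4 CPM after HS and the glutamate dehydrogenase GDH1 (AL6G28870) fell from 21.5 and 24.9 CPM in the controls to 7.87 and 8.76 CPM after HS. Over all genes tested, 37.9% were higher and 38.7% lower. The naming rule takes genes of both directions, so the difference in direction among these genes is not a result about the list.

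Of 9 tested fatty acid desaturases, enzymes that add double bonds to membrane lipids, 7 fell and none rose (median -1.59), and all tested members had a log2 fold change below 0, so that none rose at an unadjusted p under 0.05 or by DESeq2 either. SSI2 (AL4G40770), the plastid stearoyl desaturase that makes oleic acid, fell from 123 and 119.6 CPM in the controls to 23.3 and 23.1 CPM after HS (-2.39 ± 0.08). FAD4 (AL7G25290), which acts on phosphatidylglycerol of the chloroplast, fell from 23.59 and 22.5 CPM in the controls to 4.46 and 5.03 CPM after HS. Of 14 tested genes of cuticular wax, the waterproof coat of the leaf, 12 fell and none rose (all 14 lay below 0, with none higher by DESeq2 or at an unadjusted p under 0.05), 8 fell by at least 2-fold and the median of -2.44 was the lowest of all lists with 2 or more tested members. CER1 (AL1G10010), which forms alkanes, fell from 9.02 and 7.32 CPM in the controls to 0.262 and 0.39 CPM after HS (-4.46 ± 0.29). CER2 (AL7G28080), needed for chain elongation of wax precursors, fell from 26.9 and 28.3 CPM in the controls to 2.36 and 2.08 CPM after HS. DCF (AL5G27290), an acyltransferase of the family that makes cutin and suberin feruloyl esters, was among the 10 largest decreases and fell from 107 and 98 CPM in the controls to 2.1 and 2.51 CPM after HS.

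Of 25 glucosinolate genes 16 fell and 6 rose (median -0.58). MAM3 (AL6G33540), which extends the methionine side chain, fell from 10.9 and 10.6 CPM in the controls to 1.18 and 1.17 CPM after HS, and BAT5 (AL6G45680), the plastid transporter of its intermediates, fell from 20.1 and 21.96 CPM in the controls to 2.62 and 2.82 CPM after HS. BCAT4 (AL3G32590), the first enzyme of the same chain, did not pass at 435 and 445 CPM in the controls and 414 and 456 CPM after HS, and MYB34 (AL8G36260), a regulator of the indolic branch, rose from 1.74 and 1 CPM in the controls to 11.3 and 9.19 CPM after HS. Flavonoid and anthocyanin genes fell for 16 of 24 and rose for 4 (median -1.24; 2 higher with library totals). Dihydroflavonol reductase DFR (AL8G17720), the entry to anthocyanins, had 58 and 79 reads in the controls (5.95 and 5.67 CPM) and 0 in both HS libraries, at least 59.2-fold lower by the bound of 3 reads over the group. The glycosyltransferase UF3GT (AL8G28310) likewise went from 19 and 18 reads to 0, at least 16-fold lower. Their regulator PAP1 (AL1G64640), a MYB factor that activates anthocyanin genes, rose from 4.72 and 4.16 CPM in the controls to 11.1 and 13.4 CPM after HS (1.52 ± 0.17). Its model has 7 exons and is marked as containing a TE, and whether all its reads are of PAP1 was not tested. UGT78D1 (AL1G43500), a flavonol glycosyltransferase, did not pass at 77.8 and 74.1 CPM in the controls and 76.8 and 75.4 CPM after HS.

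**Figure D4:**
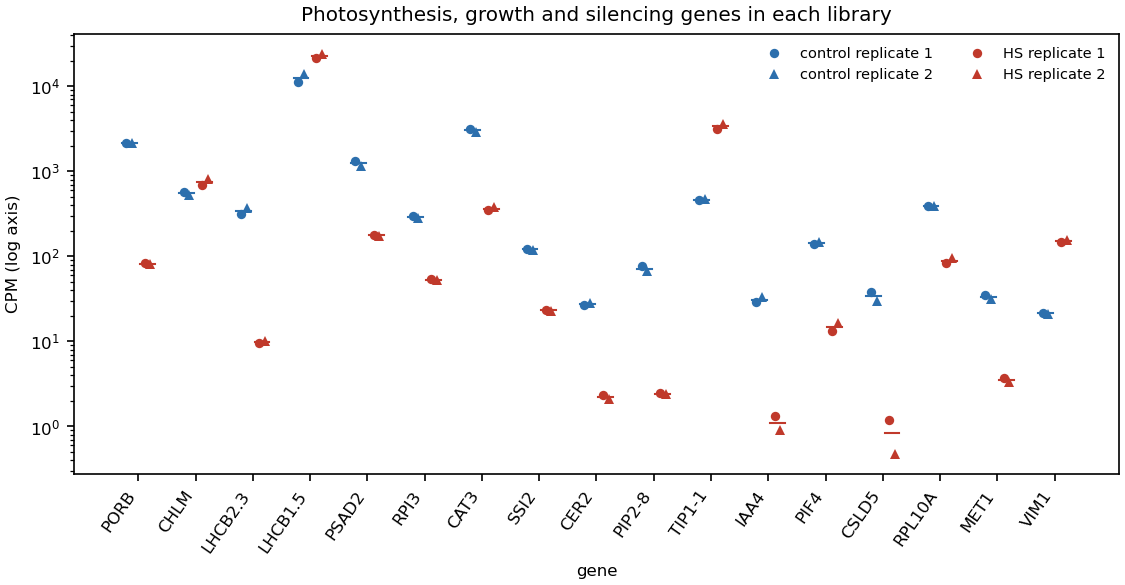
CPM (log axis) of 17 genes of photosynthesis, growth, water transport and silencing (x axis) in each control library (blue) and HS library (red), with a line at the group mean. In 13 of the 17 both HS libraries lay below both controls, and CHLM, LHCB1.5, TIP1-1 and VIM1 lay above.

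Water channels rose more often than they fell, 8 against 4 of 14 (median 0.89). The vacuolar channel TIP1-1 (AL4G31830) rose from 456 and 469 CPM in the controls to 3122 and 3652 CPM after HS (2.87 ± 0.11), and PIP2-2 (AL4G32320) of the plasma membrane rose from 39.8 and 41 CPM in the controls to 199 and 231 CPM after HS. PIP2-8 (AL3G47890), of the same membrane and family, fell from 76.3 and 66.5 CPM in the controls to 2.49 and 2.38 CPM after HS (-4.88 ± 0.14). Cell wall loosening genes, the expansins and xyloglucan enzymes, fell for 20 of 28 and rose for 4, with 14 down by at least 2-fold (median -0.96). XTH33 (AL1G21140) fell from 63.6 and 69.3 CPM in the controls to 0.656 and 0.13 CPM after HS, and its log2 fold change of -7.94 was -8.91 without HS replicate 1 and -6.63 without HS replicate 2. EXPA8 (AL4G36890), an expansin, had 0 and 12 reads after HS against 28.2 and 28.4 CPM in the controls, and its -6.16 became -11.5 without HS replicate 2. XTH25 (AL8G32450) stood out in the other direction, with 0 and 1 reads in the controls and 5.38 and 4.94 CPM after HS, 119.6 times as many by reads (95% interval 21.1 to 4754). Its fitted 6.65 was 6 when control replicate 1 was left out and 9.21 when control replicate 2 was. XTH24 (AL7G21490) did not pass at 33.9 and 40.7 CPM in the controls and 36.3 and 36.1 CPM after HS. The cell wall synthase CSLD5 (AL1G12030), which acts in cell plates, fell from 37.7 and 30.3 CPM in the controls to 1.18 and 0.477 CPM after HS (-5.67, -4.81 without HS replicate 2), and the pectin methylesterase PME5 (AL8G10430) fell from 39.4 and 34.7 CPM in the controls to 0.787 and 0.91 CPM after HS.

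Most listed cell cycle genes fell. In DNA replication 12 of 14 fell and 1 rose (median -1.26), and in mitosis and cytokinesis 16 of 19 fell and 2 rose (median -2.06, and the same with CYCB2-1 at its bound). CDT1A (AL4G25410), which licenses replication origins, fell from 9.74 and 8.54 CPM in the controls to 0.393 and 0.563 CPM after HS, and RNR1 (AL4G11030), the large subunit of ribonucleotide reductase, fell from 39.1 and 39.3 CPM in the controls to 3.41 and 6.59 CPM after HS (-2.79, -3.5 without HS replicate 2). TSO2 (AL5G15920), a small subunit gene of the same enzyme, rose from 14.2 and 14.6 CPM in the controls to 51.1 and 55.7 CPM after HS (1.90 ± 0.10). It was named by the rule as the gene against the list's direction, so no divergence of the subunits is read from it. The mitotic cyclin CYCB1-2 (AL6G15920) had 16.1 and 13.9 CPM in the controls and 0 and 2 reads after HS, 227-fold fewer by read ratio (95% counting interval 62.5 to 1886), with a fitted -7.66 that was -10.57 without HS replicate 2. CYCB2-1 (AL3G48850) went from 13 and 27 reads to 0 in both HS libraries, at least 17.3-fold lower. AUR2 (AL4G17250), an Aurora kinase, rose from 2.46 and 2.51 CPM in the controls to 11 and 12.8 CPM after HS. In the DNA damage response 5 of 9 fell and 3 rose (1 by DESeq2), a share called of 88.9% against the background of 76.5%. The kinase ATM (AL5G26630), which senses double-strand breaks, fell from 27 and 29.6 CPM in the controls to 3.15 and 4.81 CPM after HS, and RAD54 (AL3G31990), a recombination factor, fell from 8.82 and 8.61 CPM in the controls to 1.7 and 2.64 CPM after HS.

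**Figure D5:**
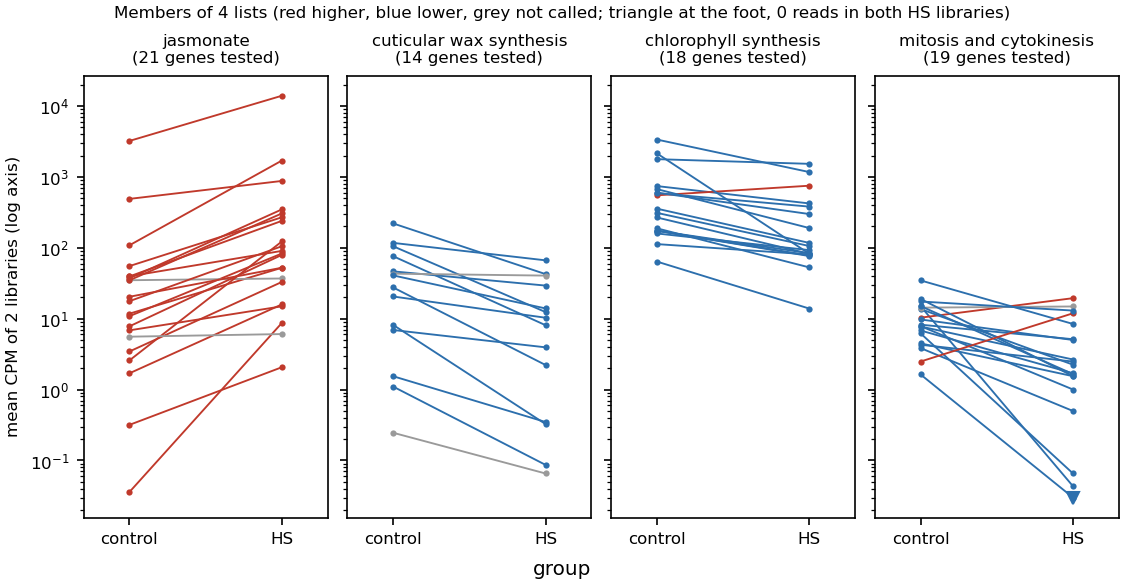
Mean CPM of 2 libraries (log axis) in control and HS for the tested members of 4 lists, joined by a line for each gene and coloured by the edgeR call, with a triangle for a gene without a read in both HS libraries. Of 21 jasmonate genes 19 rose, while 12 of 14 wax, 17 of 18 chlorophyll synthesis and 16 of 19 mitosis genes fell.

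Silencing of DNA is of interest in this series, and 17 of 33 tested genes of DNA methylation and RNA-directed silencing fell, 6 rose and 10 did not pass (median -0.37), a share called of 69.7% that is under the background of 76.5%. MET1 (AL8G21990), which maintains CG methylation, fell from 35.1 and 31.1 CPM in the controls to 3.67 and 3.38 CPM after HS. VIM1 (AL2G18280), which recruits MET1 to hemimethylated DNA, rose from 21.6 and 21.2 CPM in the controls to 146 and 157 CPM after HS (2.83 ± 0.09), and the paralogue VIM3, named after its value was seen, had a log2 fold change of -2.43 and was called lower. AGO6 (AL4G27330), an Argonaute that binds small RNAs, fell from 2.67 and 4.09 CPM in the controls to 0.262 and 0.173 CPM after HS. IDN2 (AL5G27180), a double-stranded RNA-binding partner of the same pathway, did not pass at 74 and 74.2 CPM in the controls and 67.7 and 71.9 CPM after HS.

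Of 29 tested genes of ribosomes and their assembly 20 fell and 6 rose (median -0.57). FIB2 (AL7G26880), the fibrillarin that methylates ribosomal RNA, fell from 28.9 and 28.4 CPM in the controls to 3.67 and 3.51 CPM after HS, and the ribosomal protein gene RPL10A (AL1G25870) fell from 392.3 and 387 CPM in the controls to 83.8 and 94.8 CPM after HS. APUM23 (AL2G30430), a nucleolar factor of rRNA processing, rose from 12.6 and 10.9 CPM in the controls to 25.97 and 28 CPM after HS. The ribosomal protein gene RPS5A (AL3G23150) did not pass at 311 and 300.1 CPM in the controls and 296 and 368 CPM after HS, where HS replicate 1 lay below and HS replicate 2 above both controls (log2 fold change 0.28, edgeR adjusted p = 0.0164 without HS replicate 1). SR proteins choose splice sites, and 15 of 18 of their genes rose and 2 fell (median 0.61), with 7 up by at least 2-fold. With library totals 9 rose, and 1 fell without control replicate 1, without HS replicate 1 or by DESeq2. SR45A (AL1G17360) rose from 19.5 and 20.8 CPM in the controls to 418 and 509.5 CPM after HS (4.52 ± 0.12), SR30 (AL1G19420) rose from 24.1 and 24.6 CPM in the controls to 333 and 366 CPM after HS (3.84 ± 0.09), and SCL30A (AL3G25040) fell from 41.7 and 39.8 CPM in the controls to 24.3 and 28.2 CPM after HS. The 2 first named are known in *A. thaliana* for stress-dependent splicing of their own transcripts.

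Clock genes, which keep daily time, rose for 13 and fell for 5 of 20 (median 0.54). The morning MYB factor RVE1 (AL6G27860), which acts on auxin synthesis, rose from 0.82 and 0.789 CPM in the controls to 15.74 and 13.3 CPM after HS, and LUX (AL5G24680) of the evening complex rose from 0.82 and 1.44 CPM in the controls to 14.4 and 14.5 CPM after HS. PRR3 (AL8G35440), a pseudo-response regulator, fell from 20.1 and 23.47 CPM in the controls to 0.393 and 0.737 CPM after HS (-5.06, -5.75 without HS replicate 2). Among 10 light and temperature signalling genes, 4 rose and 6 fell (median -0.28), where 37.9% and 38.7% of all genes tested did. PIF4 (AL4G39900), the bHLH factor that drives growth in mild warmth, fell from 140.0 and 146 CPM in the controls to 13.1 and 16.3 CPM after HS (-3.23 ± 0.10), and its relative PIF3 (AL1G19860) rose from 8.82 and 8.47 CPM in the controls to 59.5 and 71.1 CPM after HS (2.94 ± 0.12). HYH (AL3G30100), a bZIP factor of light responses, fell from 12 and 10.9 CPM in the controls to 2.62 and 2.77 CPM after HS. In flowering time 5 of 6 fell and 1 rose (none with library totals). The floral integrator SOC1 (AL4G43010) fell from 36.3 and 32.4 CPM in the controls to 8.26 and 8.58 CPM after HS. FT (AL2G20980), the mobile flowering signal, had 8 and 12 reads in the controls and 0 and 2 after HS, a ratio of 13 of control over HS (95% counting interval 3.15 to 114), and a fitted -3.53 that was -6.44 without HS replicate 2. FLC (AL6G20280), a repressor of flowering, was called higher at 51.6 and 46.1 CPM in the controls and 61.2 and 62.3 CPM after HS (0.35 ± 0.08), and not with library totals (0.11, edgeR adjusted p = 0.243).

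For auxin, a hormone of growth, 15 of 24 fell and 6 rose (median -0.55; 3 rose with library totals). The auxin-inducible repressors IAA4 (AL8G16240) and IAA29 (AL7G19260) fell, from 28.7 and 33 CPM in the controls to 1.31 and 0.91 CPM after HS and from 12 and 9.33 CPM in the controls to 0.918 and 0.607 CPM after HS, and IAA28 (AL6G36930), a repressor that auxin does not induce, rose from 1.64 and 2.66 CPM in the controls to 7.34 and 6.07 CPM after HS. The efflux carrier PIN3 (AL2G28930) did not pass at 40.9 and 42.8 CPM in the controls and 42.5 and 40.1 CPM after HS. For brassinosteroid and gibberellin 4 of 13 rose (2 without control replicate 2) and 5 fell. The share called was 69.2%, under the background of 76.5%, and the median was -0.29. GA3OX1 (AL1G27330), which makes active gibberellin, rose from 13.4 and 14.4 CPM in the controls to 43 and 51.8 CPM after HS. The kinase BIN2 (AL7G34750), which represses brassinosteroid signalling, fell from 114 and 117 CPM in the controls to 75.8 and 68 CPM after HS, and BAS1 (AL4G19120), which inactivates brassinosteroids, fell from 7.79 and 8.18 CPM in the controls to 3.93 and 3.77 CPM after HS, while the gibberellin repressor RGA (AL5G10610) did not pass at 45.2 and 50.5 CPM in the controls and 47.7 and 51.1 CPM after HS.

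Abscisic acid is the hormone of drought, and 18 of 30 of its genes rose and 8 fell, 15 and 5 of them by at least 2-fold (median 0.86). NCED3 (AL3G26340), the limiting step of its synthesis, rose from 1.33 and 1.44 CPM in the controls to 32.4 and 29.6 CPM after HS (4.45 ± 0.18), and CYP707A4 (AL3G32080), which breaks it down, rose from 1.13 and 0.861 CPM in the controls to 39.6 and 38.4 CPM after HS (5.31 ± 0.18). AAO3 (AL4G20190), the last enzyme of synthesis, fell from 29.7 and 31.7 CPM in the controls to 8.13 and 7.8 CPM after HS. The receptor PYL4 (AL4G34020) did not pass at 53.6 and 49.2 CPM in the controls and 41.6 and 62.6 CPM after HS, where the 2 HS libraries lay on both sides of the controls. Of 8 tested cold response genes 5 rose and 3 fell. The zinc finger factor ZAT12 (AL8G35150) rose from 1.13 and 0.287 CPM in the controls to 39.6 and 36.2 CPM after HS (5.87, between 5.04 and 7 when either control library was left out). CBF2 (AL7G27050), a master regulator of cold acclimation, had 1 and 0 reads in the controls and 15 and 48 after HS, 48.6 times as many (95% interval 8.41 to 1950.0), with a fitted 5.34 that became 7.99 when control replicate 1 was left out and 4.21 when control replicate 2 was. COR15B (AL4G39340), a target of CBF factors that protects chloroplast membranes, fell from 31.3 and 31.7 CPM in the controls to 0.656 and 1.08 CPM after HS (-5.00 ± 0.18).

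Jasmonate is the hormone of wounding, and 19 of 21 of its genes rose with none lower (none at an unadjusted p under 0.05 or by DESeq2) and 18 up by at least 2-fold, where 20.5% of all genes were (median 2.58). JAZ5 (AL1G29270), a repressor that jasmonate itself induces, rose from 2.36 and 2.8 CPM in the controls to 118 and 128 CPM after HS (5.55 ± 0.13). JAZ8 (AL1G42980), a repressor that escapes jasmonate-triggered breakdown, had 0 and 1 reads in the controls and 9.31 and 8.11 CPM after HS, 199 times as many by reads (95% interval 35.4 to 7892). Its fitted 7.39 became 6.74 when control replicate 1 was left out and 9.96 when control replicate 2 was. VSP1 (AL6G35630), a vegetative storage protein used as a jasmonate marker, rose from 3202 and 3222 CPM in the controls to 14773 and 13103 CPM after HS (2.12 ± 0.09). Reads of the list made up 0.434 and 0.442% of the control libraries and 1.78 and 1.55% of the HS libraries. The 2 members that did not pass, JAZ3 and LOX4, were named after their values were seen and had log2 fold changes of 0.09 and 0.21.

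Salicylic acid and immunity genes were split evenly, 7 higher and 7 lower of 20 (median -0.02), and 70.0% were called, under the background. RBOHD (AL8G19340), the oxidase that makes extracellular superoxide, rose from 11.2 and 10.9 CPM in the controls to 56.7 and 60.9 CPM after HS, and CYP71A13 (AL4G24690), an enzyme of camalexin synthesis, rose from 0.513 and 0.431 CPM in the controls to 3.54 and 4.68 CPM after HS. PBS3 (AL6G23530), which conjugates the precursor of salicylic acid, fell from 6.26 and 7.46 CPM in the controls to 1.05 and 0.91 CPM after HS, and the receptor kinase BAK1 (AL7G17840) did not pass at 40.5 and 34.9 CPM in the controls and 40.4 and 40 CPM after HS. Of 20 WRKY factors 11 rose and 4 fell (2 without control replicate 2, without HS replicate 2 or by DESeq2). WRKY18 (AL7G19890) rose from 13.9 and 13.5 CPM in the controls to 175 and 180.0 CPM after HS (3.70 ± 0.09) and WRKY46 (AL4G43870) rose from 0.923 and 0.718 CPM in the controls to 9.18 and 9.88 CPM after HS, both pathogen-responsive. WRKY3 (AL5G12900) fell from 64.1 and 66 CPM in the controls to 21.8 and 24.7 CPM after HS, and WRKY17 (AL4G14840) did not pass at 7.69 and 7.75 CPM in the controls and 10.4 and 9.19 CPM after HS.

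Genes used as RT-qPCR references were not exempt from the change seen in most genes tested. UBC28 (AL2G10780), a ubiquitin-conjugating enzyme that the study used to normalize RT-qPCR, rose from 132 and 135 CPM in the controls to 402 and 423 CPM after HS (1.63 ± 0.09), and its other reference, GAPC2 (AL1G24880) of glycolysis, fell from 827 and 821 CPM in the controls to 522 and 609.8 CPM after HS (-0.54 ± 0.10). Both kept their direction and call under RLE scaling (1.65 and -0.52) and library totals (1.4 and -0.77). The study's methods describe reference expression as stable in control, heated and recovered plants. Its RT-qPCR normalized to UBC28 used plants grown in vitro, whereas the plants here grew on soil, so the 2 are not a direct comparison. In a list of 12 tested reference genes 7 rose and 3 fell (5 with library totals). The share called was 83.3%, near the background of 76.5%, and 3 rose and 1 fell by at least 2-fold. UBC9 (AL7G24180) rose from 100.2 and 86.3 CPM in the controls to 244 and 284 CPM after HS, and EF1A (AL1G18060), whose *A. lyrata* locus stands for 4 translation elongation factor genes of *A. thaliana*, fell from 295 and 298 CPM in the controls to 111 and 145 CPM after HS and overlaps another gene model on its strand.

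Over all genes with an orthologue and a mean of at least 10 CPM, the 10 largest fitted rises included a locus whose orthologue is annotated as a Copia-like retrotransposon polyprotein. Fitted values of loci without a control read depend on the prior count, so the order among the 10 is not given. AT1G48720 (AL638U10020), named for that orthologue, lies on scaffold 638, 3896 to 4952, in 1 exon. It had 0 reads in both controls and 662 and 2011 in the HS libraries (86.8 and 87.2 CPM), at least 687-fold higher. The annotation does not mark this locus as containing a TE. How reads that match several copies were assigned is not given, so its reads may come from similar copies elsewhere. AT4G11911 (AL6G45500), whose orthologue is a STAY-GREEN-like protein, went from 0 reads to 45.9 and 51.1 CPM, at least 393-fold higher. A DnaJ-domain chaperone gene, AT1G71000 (AL2G29000), rose from 1 and 1 reads to 156 and 169.8 CPM, 1969 times as many by reads (95% interval 545 to 16266). The other 7 of the 10 were small HSPs and ROF2. HSP17.6C rose from 3.9 and 3.45 CPM in the controls to 4837 and 4489.9 CPM after HS and was 1 of them. Among loci without an orthologue, AL1G58620 (scaffold 1, 27785917 to 27787017) and AL5G17260 (scaffold 5, 4327289 to 4328835) had 0 control reads and 45.8 and 52.7 CPM and 47.3 and 43 CPM after HS, at least 403-fold and 348-fold higher. The annotation marks both as containing a TE, and the same limit on reads of several copies holds for them. AL1G54930 (scaffold 1, 25450367 to 25452728), also without an orthologue, went from 0 reads to 18.4 and 13.3 CPM, at least 115-fold higher. In all 4201 loci had no control read, of which 41 were tested and all 41 were called higher, a result the filter fixes in part, since they passed it through other libraries.

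At the same limit of 10 CPM, the 10 largest fitted falls came from other genes. AT5G22920 (AL6G33450), a RING and CHY zinc finger protein gene, fell from 129 and 119.5 CPM in the controls to 0.918 and 2.17 CPM after HS (-6.07, -7.05 without HS replicate 2). AT5G48490 (AL8G20720), of the lipid-transfer protein family, fell from 59 and 63.5 CPM in the controls to 0.918 and 1.3 CPM after HS, and AT1G02610 (AL1G11870), another RING finger gene, fell from 32.8 and 32.9 CPM in the controls to 0.656 and 0.737 CPM after HS. AT1G73600 (AL2G31740), annotated as a methyltransferase, started highest and fell from 769.6 and 776 CPM in the controls to 20.2 and 16 CPM after HS (-5.45 ± 0.13). AT1G06360 (AL1G16220), of the fatty acid desaturase family, fell from 50.1 and 47.7 CPM in the controls to 0.656 and 1.39 CPM after HS (-5.34, -6.18 without HS replicate 2). The other 5 of the 10 were XTH33, EXPA8, CSLD5, DCF and PME5, of the cell wall and cuticle. Of loci without an orthologue, AL5G16770 (scaffold 5, 3991528 to 3992002) fell from 289.7 and 283 CPM in the controls to 5.64 and 7.11 CPM after HS and AL4G43920 (scaffold 4, 22535149 to 22536755) fell from 22.9 and 25.1 CPM in the controls to 0.787 and 0.433 CPM after HS (-5.50, -4.9 without HS replicate 2).

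The set of the 5 most abundant transcripts changed in part. On the scale of RPKM, the CPM divided by the exon length in kilobases, the 5 highest genes in the controls were LHCB1.3 at 13294, LHCB1.5 at 12337, LHCB1.1 at 11734, the unnamed locus AL7G50640 at 9980.0 and RBCS1B (AL7G50630), a Rubisco small subunit, at 7510.1. After HS they were LHCB1.5 at 22439, HSP22.0 at 21883, the unnamed locus AL1G46520 at 18842, HSP18.2 at 16181 and VSP1 at 12445 RPKM. LHCB1.5 was thus in both sets. Outside the 5, AL7G50640 was at 11490 RPKM and LHCA1 at 9992 RPKM after HS, so the cut at 5 genes matters. AL1G46520 (scaffold 1, 15435103 to 15435967, 1 exon) has no orthologue in the annotation and rose from 8.92 and 9.33 CPM in the controls to 18057 and 14540.4 CPM after HS (10.80 ± 0.26). Its model and that of HSP22.0 both have 865 bp in 1 exon. Whether the 2 are copies was not tested, and the assignment of reads that match several copies is not given. HSP18.2 (AL8G35040), a cytosolic small HSP, rose from 11.5 and 7.89 CPM in the controls to 12668 and 9694 CPM after HS. RBCS1B (AL7G50630) fell from 5375 and 5980.3 CPM in the controls to 3834 and 4324 CPM after HS, and AL7G50640, the next locus on scaffold 7, did not pass at 10024 and 10914 CPM in the controls and 10862 and 13244 CPM after HS, with HS replicate 1 inside the range of the controls (log2 fold change 0.20). It was called higher without HS replicate 1 (0.35, edgeR adjusted p = 0.000198), with RLE scaling (0.22, edgeR adjusted p = 0.0352), without a filter (edgeR adjusted p = 0.0252), with the replicate block (edgeR adjusted p = 0.0381) and by DESeq2 (adjusted p = 0.0273).

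After 48 h of recovery at 21 °C the means of the same genes, over 2 libraries compared with the same controls, stood as follows. HSP17.4 was at 9.59, HSP90.1 at 21, HSFA2 at 2.31 and BIP2 at 83.9 CPM, against control means of 3.46 ± 1.41, 12.4 ± 1.9, 5.57 ± 0.0427 and 80.2 ± 4.33 CPM (± SD, n = 2). PORB was at 1942, LHCB2.3 at 269, CER2 at 27.8 and PIF4 at 133 CPM, against 2147 ± 23, 341 ± 35.5, 27.6 ± 0.997 and 143 ± 4.24 CPM. JAZ8 was at 12.1 CPM, above its 8.71 ± 0.853 CPM after HS, and WRKY18 was at 69.3 CPM, between its 13.7 ± 0.321 CPM in the controls and 178 ± 3.24 CPM after HS. Recovered plants were 48 h older than the controls, so recovery and growth over that time cannot be told apart.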

How the data were processed

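RNA of rosette leaves was made into strand non-specific libraries with the TruSeq kit and read as single ends. After quality trimming (FASTX toolkit), the authors used tophat2 for mapping to assembly v1.0 and Qualimap for counting over annotation v2, and each deposited count is a whole number of reads, not normalized. FastQC and TopHat are named in the submitters' processing notes. The treatment of multi-mapped reads is not given in the sources used here. A further 6 columns headed RPKM, and the *A. thaliana* table, were not used.

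Counts of the 6 *A. lyrata* libraries were fitted together in edgeR 4.0.16 (R 4.3.3) after filterByExpr (minimum count 10, minimum total 15) and TMM scaling, by the quasi-likelihood test without a covariate (3 residual degrees of freedom, common biological coefficient of variation 0.0748). Benjamini-Hochberg adjustment ran over all 20779 genes, at a threshold of 0.05. Totals of 8246880 to 26046839 reads make 3 reads equal to 0.13 to 0.393 CPM in the 4 libraries, and intervals and bounds cover counting error only. Replicates of a group differed beyond sampling noise. Gene names, with TAIR10.1 symbols and products, were taken through the orthologue field of the annotation (22187 of 22256 orthologue IDs found in the reference). RPKM was computed here from the counts.

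The members, lists and rule were chosen with earlier results of these data known. Named genes were, for each list, the 2 largest changes with non-overlapping libraries in the direction most members took, the 1 largest in the other and, with 3 or more uncalled members, the uncalled one of highest CPM, and over all genes the 10 largest changes each way at a mean of at least 10 CPM, 2 each way without orthologue, the 5 highest RPKM per group, the 5 highest in HS without a control read, and UBC28 and GAPC2, the references of the study's RT-qPCR. Of these, 1 gene is not reported here. Alternatives were RLE scaling, library totals, no filter, a stricter filter, DESeq2 1.42.0, the 4 libraries alone, leaving out each library, and replicate number as a block.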

Additional observations from a re-analysis of the deposited data

How the results depend on the processing

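The counts of genes changed by HS stayed within 1.5 times under every alternative. Higher genes numbered 7982 with RLE scaling, 6386 with library totals, 8041 without a filter, 6690 with at least 10 reads in every control and HS library, 6462 with DESeq2 and 7694 with the 4 libraries alone, and lower genes 7936, 9617, 8461, 6765, 6382 and 7962. Leaving out each library in turn gave 7081 to 7875 higher and 7113 to 8100 lower genes, and 4131 to 4366 and 4429 to 4905 at 2-fold or more. Where this left a group with 1 library, that library is assumed to vary like the others. Of the 15905 calls, 79.5% were also called by DESeq2 and 86.8% without HS replicate 2. Differences between replicates 1 and 2 over all tested genes correlated at 0.008 (control and HS), -0.001 (control and recovery) and 0.114 (HS and recovery). Noise of low counts enters these values, so they cannot show whether libraries of the same replicate number share a batch. With replicate number as a block 7924 genes were higher and 8062 lower. Of the named genes that had not passed, 3 took the other sign and passed in an alternative, RPT1A (-0.18) and UGT78D1 (-0.23) with library totals and PYL4 without HS replicate 2 (-0.29, but 0.30 without HS replicate 1). The cause was not tested. Of the 172 named genes, 163 kept direction and call with library totals and 170 with DESeq2. With library totals 10 of 96 list counts moved by over 1.5 times, with the stricter filter 8, with DESeq2 5 and with RLE scaling 0.

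Depth limits low genes most. A gene needs about 10 reads in 2 libraries to enter the test, so changes of genes at 0 to a few reads were not detectable at this depth. The 2 libraries per group give a spread that is shared between genes. Loci with reads in control replicate 2 alone were not tested, an outcome that the filter fixes. Whether such reads also raised low counts of tested genes in that library was not tested.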

Other observations

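Loci without an *A. thaliana* orthologue were tested less often, 3843 of 10650 (36.1%) against 16936 of 22143 with one (76.5%), and were called in 70.6% against 77.9% of those tested. Loci that the annotation marks as containing a TE were called higher in 34.1% and lower in 40.3% of 1699 tested, with a median log2 fold change of -0.11, against 38.2% and 38.5% of 19080 without the mark. Genes with large changes in either direction had fewer exons. Genes higher by at least 16-fold had a median of 3 exons and 29.7% had a single exon, while all higher genes had a median of 5 exons and 13.1% had a single one. Genes lower by at least 16-fold had a median of 3 exons and 22.8% had a single exon, against 5 exons and 13.1% for all lower genes.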
